A study of Mus with 14 samples.

Results

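The cells described here are 423 of 70038 kept bone marrow cells (0.604%) that carried transcripts of the early B cell lineage but no transcript of Dntt. They were chosen by unique molecular identifiers (UMIs, each standing for 1 captured mRNA molecule). Kept cells had 1000 UMIs or more over 500 genes or more, and less than 10% of their UMIs were mitochondrial. A kept cell entered the gate with 0 UMIs of Dntt, at least 2 UMIs over Vpreb1, Vpreb3 and Igll1 together, at least 1 UMI of Cd79a and 0 UMIs of Ms4a1. The working name of this gate was Dntt-negative large pre-B cells. Of the markers of that name that the gate did not use, Pax5, Lef1 and Mki67 were detected in 61.7%, 57.99% and 69.1% of the gate cells of the library that gave most of them, Dnmt3a replicate 4. In the other 13 libraries together they were detected in 73, 24 and 58 of 154 gate cells. All 3 were present in 88 of 269 cells of the former and 15 of 154 of the latter, so most gate cells did not show all 3. In Dnmt3a replicate 4 the gate cells were also compared with cells that met the gate but for a Dntt UMI. Of the 5 large pre-B markers, Vpreb3 and Igll1 included, 0 were 2-fold higher in the gate cells and 4 were 2-fold lower. Vpreb3 and Igll1 were among those lower, but the gate used them on both sides, so they are no free measure. With cells high in granulocyte, erythroid or plasma cell genes left out, 0 were 2-fold lower. Pax5, Lef1 and Mki67, which the gate did not use, were not 2-fold higher in the gate cells there. The text therefore calls the cells gate cells.

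B cells form in the marrow in steps that follow the assembly of the antibody genes. Pro-B cells join the segments of the heavy chain gene with the recombinase made by Rag1 and Rag2, while terminal transferase, encoded by Dntt, adds bases at the joints. A successful heavy chain is displayed with the surrogate light chain (the products of Igll1 and Vpreb1, or its near copy Vpreb2) and the signalling partners Cd79a and Cd79b as the pre-B receptor, and the resulting large pre-B cells divide under interleukin-7. They then stop dividing, lose the surrogate light chain, rearrange the kappa or lambda light chain genes, and become immature B cells; Ms4a1, which encodes CD20, marks later stages.

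Each of the 14 libraries held cells of 1 mouse that lacked lineage markers, carried Kit and were of donor type (Lin-Kit+CD45.2+). The genotype labels were MxCre (3 mice), Dnmt3a (4), Dnmt3a;Tnfr1KO (3) and Dnmt3a;Tnfr2KO (4), the last pair being written Tnfr1KO-labelled and Tnfr2KO below. All donor cells had first been transplanted with CD45.1+ competitor marrow into aged, irradiated CD45.1+ mice, which received a single dose of poly(I:C), the inducer of Mx1-driven Cre, a month later. Marrow of those mice went into aged, irradiated secondary recipients, harvested 20 weeks later, and 12000 sorted cells were loaded per lane. Mx1-Cre acts in many blood and other cells that sense interferon, so recombination is not limited to B cells. The labels name neither the Dnmt3a allele, the lineage antibodies, nor the primary recipient from which each mouse received its marrow. The p-values therefore measure the spread between these mice, which may share donors. Kit falls as B cells mature, and lineage panels often include B cell antigens, so the sort can itself set how many gate cells were seen.

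Libraries held 3042 to 9724 barcodes and 62416022 to 162869740 UMIs. Kept cells numbered 1955 to 7745 per library, with median depths of 11275 UMIs (Dnmt3a replicate 4) to 39561 UMIs (Dnmt3a replicate 1, where 26.9% of barcodes were kept). In the kept cells outside both gates and outside the mature B cells, Tnfrsf1b, which encodes Tnfr2, had 3.97 to 5.56 CPM (UMIs scaled to a common library total) in the Tnfr2KO libraries and 10.4 to 18.9 CPM in the other 10. Tnfrsf1a, which encodes Tnfr1, had 33.7 to 38.1 CPM in the Tnfr1KO-labelled libraries and 38.6 to 65.0 CPM in the other 11, and Dnmt3a transcripts had 29.4 to 38.8 CPM in the Dnmt3a libraries and 21.6 to 31.0 CPM in MxCre. The 3' tags of Tnfrsf1a and Dnmt3a may lie outside the changed part of the gene and then check nothing about those labels. Kept barcodes seen in more than 1 library numbered 595, at most 17 for any pair of libraries. Of the gate cells, 7 had a barcode also kept in another library, and in 0 cases was that cell in the gate too.

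The gate cells were spread very unevenly over the mice. Dnmt3a replicates 1 to 4 gave 14, 4, 53 and 269 gate cells, so Dnmt3a replicate 4 alone held 63.6% of all of them. MxCre replicates 1 to 3 gave 2, 3 and 2, the Tnfr1KO-labelled replicates 11, 33 and 18, and the Tnfr2KO replicates 5, 3, 2 and 4. As shares of kept cells these were 0.0324%, 0.104% and 0.0434% in MxCre and 0.716%, 0.145%, 0.923% and 4.74% in Dnmt3a. The shares were 0.170%, 0.894% and 0.567% in the Tnfr1KO-labelled mice and 0.0646%, 0.0508%, 0.0311% and 0.0587% in Tnfr2KO. Every Dnmt3a and Tnfr1KO-labelled mouse lay above every MxCre and Tnfr2KO mouse, and the Dnmt3a and Tnfr1KO-labelled mice overlapped. Cells that met the gate but for a Dntt UMI were 3.02%, 0.145%, 1.38% and 33.8% of kept cells in Dnmt3a and 0.0162%, 0% and 0.152% in MxCre. They were 0.0462%, 0.406% and 0.221% in the Tnfr1KO-labelled mice and 0.0129%, 0%, 0.0311% and 0.0881% in Tnfr2KO. The high share in Dnmt3a replicate 4 was therefore not limited to gate cells.

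**Figure D1:**
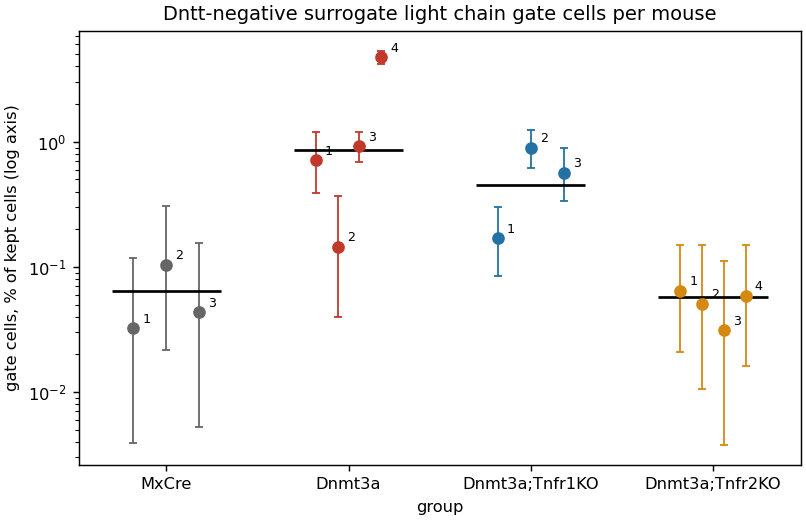
Gate cells as a percentage of kept cells in each of the 14 mice (log axis), by genotype label; points are mice numbered by replicate, bars are 95% exact binomial intervals for counting error only, and black lines are geometric means. Dnmt3a replicate 4 stands at 4.74%, and the MxCre and Tnfr2KO mice lie between 0.0311% and 0.104%.

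The MxCre mice had a mean share of 0.0600% ± 0.0388 (SD, n = 3) and the Dnmt3a mice one of 1.63% ± 2.10 (SD, n = 4). The Tnfr1KO-labelled mice had 0.544% ± 0.363 (SD, n = 3) and the Tnfr2KO mice 0.0513% ± 0.0146 (SD, n = 4). On a log2 scale of shares, Dnmt3a exceeded MxCre by 3.73, a ratio of 13.3 between geometric means (exact two-sided permutation p = 0.0571, the smallest that 4 against 3 mice allow). Tnfr2KO differed from Dnmt3a by -3.90, which is 14.9-fold lower (exact two-sided permutation p = 0.0286, the smallest that 4 against 4 allow). Tnfr2KO differed from the Tnfr1KO-labelled mice by -2.99, or 7.92-fold lower (exact two-sided permutation p = 0.0571, again the smallest possible). With Benjamini-Hochberg adjustment over the 4 comparisons, the p of each of these 3 was 0.0762, so none passed 0.05, and with this many mice and comparisons none could have. The Tnfr1KO-labelled mice differed from Dnmt3a by -0.91 (exact two-sided permutation p = 0.514, adjusted 0.514), a difference smaller than the spread between mice. When each mouse was left out in turn the differences ran from 2.91 to 4.53, from -4.69 to -3.07, from -3.66 to -2.49 and, for the last, from -1.71 to -0.09. The comparisons share their Dnmt3a, Tnfr1KO-labelled and Tnfr2KO mice and are not independent of each other. Depth differed between the libraries, and most gate cells outside Dnmt3a replicate 4 had fewer than 5000 UMIs. Gate cells of 5000 UMIs or more numbered 1, 1 and 2 in MxCre, 8, 4, 19 and 171 in Dnmt3a, 4, 8 and 7 in the Tnfr1KO-labelled mice and 2, 0, 1 and 0 in Tnfr2KO. With all cells under 5000 UMIs left out and the rest thinned to 5000 UMIs before the gate was applied, the differences were 4.85 for Dnmt3a against MxCre, -6.36 for Tnfr2KO against Dnmt3a, -3.70 for Tnfr2KO against the Tnfr1KO-labelled mice and -2.66 for the Tnfr1KO-labelled mice against Dnmt3a (exact two-sided permutation p = 0.0571, 0.0286, 0.0571 and 0.114). The first step removes most gate cells of the other 13 mice as a whole, and the second lets in cells whose Dntt UMIs were drawn out, with which Dnmt3a replicate 4 had 311 gate cells of 3849. These values therefore do not bear on depth, and fewer such cells and less of the gate's RNA per cell cannot be told apart.

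The thresholds cut through a continuous range of detection. Just inside, 64 gate cells had exactly 2 surrogate light chain UMIs and 60 had exactly 1 UMI of Cd79a. Just outside, 149 cells missed the gate with 1 surrogate light chain UMI, 589 with no Cd79a UMI, and 38 with 1 UMI of Ms4a1. With 1 UMI of Dntt there were 220 further cells, and with 2 UMIs 242.

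The surrogate light chain genes that admitted a cell differed between libraries. Of the 423 gate cells, 232 had a UMI of both Igll1 and Vpreb1, 130 had neither and so entered on Vpreb3 alone, and 61 had one of the pair. These 3 kinds were distinguished after the data had been seen. Vpreb3 encodes a B cell protein of the endoplasmic reticulum that, unlike Igll1 and Vpreb1, stays on after the pre-B stage. Dnmt3a replicate 4 held 209 of the 232 cells with both genes, which were 77.7% of its gate cells, and 19 Vpreb3-only cells (7.06%). In the other 13 libraries together the order was the opposite: 14.9% of 154 gate cells had both genes and 72.1% had Vpreb3 only. Dnmt3a replicate 3 held 38 Vpreb3-only cells, and the Tnfr1KO-labelled replicates 1 to 3 held 8, 26 and 17.

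**Figure D2:**
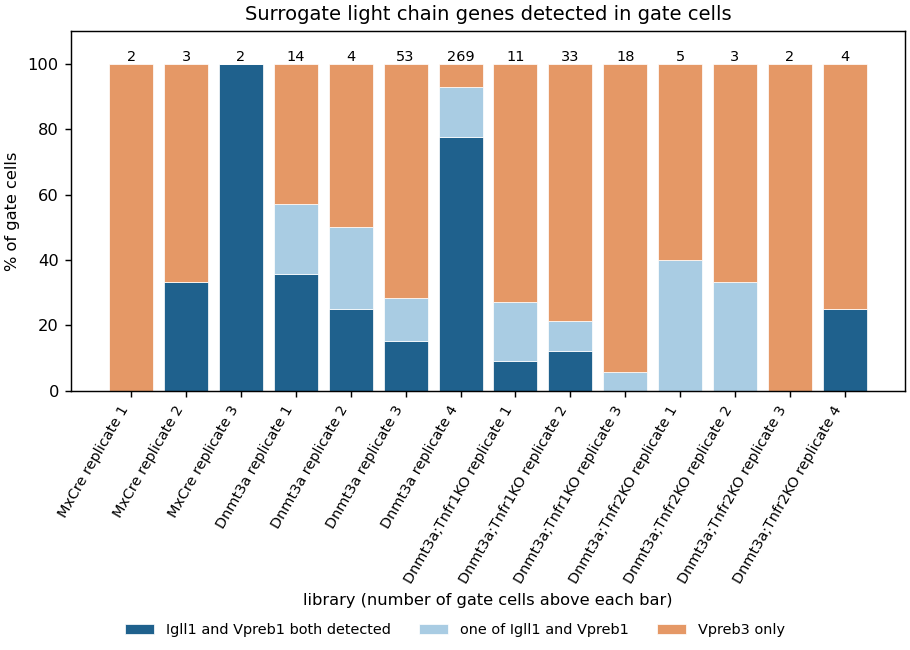
Percentage of the gate cells of each library in which Igll1 and Vpreb1 were both detected, one was detected, or only Vpreb3 was; numbers above the bars are gate cells. Both genes were detected in 77.7% of the 269 gate cells of Dnmt3a replicate 4, against 15.1% of 53 in Dnmt3a replicate 3 and 12.1% of 33 in Tnfr1KO-labelled replicate 2.

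Cells with both Igll1 and Vpreb1 averaged 0.0260% of kept cells in MxCre, 1.03% ± 1.77 (SD, n = 4) in Dnmt3a, 0.0413% in the Tnfr1KO-labelled mice and 0.00367% in Tnfr2KO. The Dnmt3a mean rests on replicate 4, at 3.68%, beside 0.256%, 0.0363% and 0.139% in replicates 1 to 3. Dnmt3a replicate 2 lay below Tnfr1KO-labelled replicate 2, at 0.108%, and below MxCre replicate 3, at 0.0434%, so by this kind of cell Dnmt3a overlapped both groups. Vpreb3-only cells averaged 0.0340% in MxCre, 0.344% ± 0.242 (SD, n = 4) in Dnmt3a, 0.455% ± 0.299 (SD, n = 3) in the Tnfr1KO-labelled mice and 0.0369% in Tnfr2KO. Counted by cells with both genes, the difference of the Tnfr1KO-labelled mice from Dnmt3a was -3.09 on the log2 scale (exact two-sided permutation p = 0.114). Counted by Vpreb3-only cells it was 0.37 (exact two-sided permutation p = 0.686). By either count the mice of the 2 groups overlapped.

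Genes that played no part in the gate placed most gate cells in the B lineage. Ebf1, the factor that starts the B cell programme, was detected in 361 of the 423 cells, and Pax5, which fixes B cell identity, in 239. Of the markers given for large pre-B cells, Lef1, a transcription factor of dividing early B cells, was detected in 180 and Mki67, a gene of dividing cells, in 244. Pax5, Lef1 and Mki67 were all found in 95 of the 232 cells with both surrogate light chain genes, and in 3 of the 130 Vpreb3-only cells. Lef1 was found in 159 of the former and 10 of the latter. Vpreb2 was found in 190 and 2, but as a near copy of Vpreb1 it is not independent of the split. In the other direction, Ly6d, a surface protein of lymphoid cells, was found in 22 of the former and 111 of the latter, and Igkc, the constant part of the kappa light chain, in 119 and 114. In Dnmt3a replicate 4 Igkc was found in 50.2% of the 209 cells with both genes, and in that library 27.1% of granule-gene-rich cells (median 8876 UMIs) and 27.96% of erythroid-gene-rich cells (median 12275 UMIs) also had an Igkc UMI. Kit transcripts, the gene of the sorting marker, were found in 102 and 9. The kinds also differ in depth and in the libraries they come from. The median depth was 9361 UMIs in the former of Dnmt3a replicate 4 and 2062 UMIs in the latter of Dnmt3a replicate 3.

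**Figure D3:**
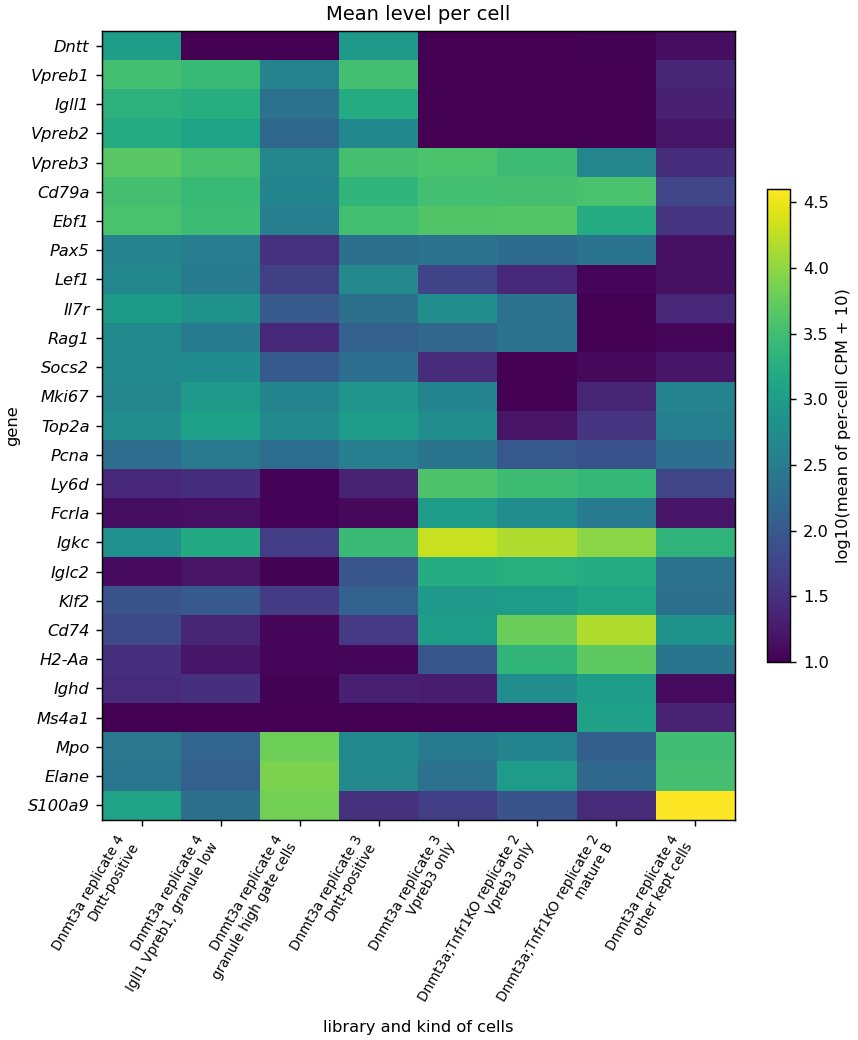
Mean of per-cell CPM (log10 after adding 10) of 27 genes in the gate cells of 3 libraries, divided by kind, beside Dntt-positive cells, mature B cells and the kept cells of none of these kinds. Lef1 and Vpreb2 are at low levels in the Vpreb3-only columns while Ly6d, Fcrla and Igkc are high there. Dntt, Vpreb1, Igll1, Vpreb3, Cd79a and Ms4a1 were used to define the columns. So was Ighd for the mature B cells. Mpo, Elane and S100a9, as granulocyte genes, helped to define the columns low or high in granule genes.

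The kept cells of Dnmt3a replicate 4 that were neither gate cells, Dntt-positive cells nor mature B cells numbered 3394. Set beside these, the gate cells of that mouse had 143 of 3268 genes at least 2-fold higher (4.38%) and 56 at least 2-fold lower (1.71%). A ranking left the gate's genes aside and kept genes of the same direction in Dnmt3a replicate 3 and Tnfr1KO-labelled replicate 2. Its 10 highest were Ebf1 (1023 CPM against 6.11), Vpreb2 (419.9 against 2.42), Sdc4, Socs2, Bfsp2, Il7r (234 against 3.54), Blnk, Pax5 (143 against 1.35), Tmem108 and Cplx2. Each reached 50 CPM only in the gate cells, which were chosen by B cell transcripts. The ranking and the count of higher genes are therefore a description and no support. Between the gate cells of Dnmt3a replicates 4 and 3, 94 of 3373 genes were at least 2-fold higher in replicate 4 (2.79%) and 95 lower (2.82%). The widest were haemoglobin genes (Hbb-bs, Hba-a1, Hbb-bt and Hba-a2) and S100a9, higher in replicate 4, and Igha, Jchain, Igkc, Iglc1 and Iglc2, lower. Hbb-bs was detected in 242 of the 269 cells of replicate 4 with a median of 3 UMIs. In replicate 3, 1 of 53 gate cells held all 1035 UMIs of Igha.

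Some gate cells carried transcripts of other lineages. In all, 65 carried at least 1% of their UMIs on 13 granulocyte genes, and 55 of them came from Dnmt3a replicate 4 (20.4% of its gate cells). They included 24 of its 41 cells with one of Igll1 and Vpreb1, a kind whose median depth was 38723 UMIs. That kind held a median of 0.631 surrogate light chain UMIs per 10000 UMIs, against 68.1 in cells with both genes. In the same library, 10.4% of 1105 granule-gene-rich kept cells (median 8876 UMIs) had a Vpreb3 UMI, 8.24% had a Cd79a UMI, and 8 of them (0.724%) met the gate. Those shares were between 0% and 1.76% for Vpreb3 in the granule-gene-rich cells of the other libraries. On erythroid genes 13 gate cells reached 1%, 12 of them in Dnmt3a replicate 4, and on plasma cell genes 10 did, 4 of them in Tnfr1KO-labelled replicate 3; some cells were high on more than one list. Of the 1920 Dntt-positive cells of Dnmt3a replicate 4, 69 reached 1% on granulocyte genes. The doublet caller marked 40 gate cells, 22 of which were high in granulocyte genes. In Dnmt3a replicate 4 it marked 29 of 269 gate cells (10.8%) and 258 of 5680 kept cells (4.54%). The other marked gate cells came from Dnmt3a replicate 3 and Tnfr1KO-labelled replicates 2 and 3. The part of doublets and of free RNA in these cells was not tested. The remaining 337 gate cells were below 1% on all 3 lists, 203 of them in Dnmt3a replicate 4.

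These cells weighed on sums over the library. In Dnmt3a replicate 4 the gate cells summed to 4496 CPM of Prtn3, 3968 CPM of Elane and 3370 CPM of Mpo, which encode granule proteins of early neutrophils. The Dntt-positive cells of that mouse, 1920 cells that met the gate but for at least 1 UMI of Dntt, summed to 974, 929.9 and 887 CPM. The granulocyte-gene-high cells held 98.4% of the gate cells' Elane UMIs and 94.1% of their Mpo UMIs. Of 3519 genes at 50 CPM or more in either, 65 were at least 2-fold higher (1.85%) and 131 at least 2-fold lower (3.72%) in the gate cells, on log2 of CPM plus 10. In Dnmt3a replicate 3, 85 of 3330 genes were at least 2-fold higher (2.55%) and 88 at least 2-fold lower (2.64%) than in its 79 Dntt-positive cells. Single cells set other sums. In Dnmt3a replicate 3, 1 cell held 9552 of 10140 Igkc UMIs (94.2%), while the median gate cell held 8, and 1 cell held all 1545 UMIs of Jchain, which joins secreted antibodies. In Tnfr1KO-labelled replicate 3, 4 of 18 cells held all 13760 UMIs of Igha, the constant part of the IgA heavy chain. The comparisons that follow therefore left out, on both sides, cells with at least 1% of UMIs on granulocyte, erythroid or plasma cell genes, a step chosen after the data had been seen. They are a description within 1 mouse, since the gate chose the cells by their transcripts.

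Without those cells the counts in Dnmt3a replicate 4 dropped to 15 of 3501 genes higher (0.428%) and 13 lower (0.371%), and in Dnmt3a replicate 3 they became 155 of 3444 higher (4.5%) and 134 lower (3.89%).

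In Dnmt3a replicate 4, 175 such cells with both Igll1 and Vpreb1 were set beside 1825 Dntt-positive cells. The 2 differed little. The median depth in this mouse was 9361 UMIs in all gate cells with both genes and 5018 UMIs in Dntt-positive cells, so shares of cells with a UMI are not on an equal footing. Of 3477 genes, 3 were at least 2-fold higher (0.0863%) and 11 at least 2-fold lower (0.316%), with a median difference of 0.02 on the log2 scale over all of them. The higher genes were Myl4 (2.21), Hmgn1 (1.80) and Fabp5 (1.07).

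Of the 18 genes of the pre-B receptor and its signalling, 16 reached 50 CPM and 0 differed by 2-fold, with a median of -0.30. Vpreb1, Vpreb3, Igll1 and Cd79a are on this list and were used to choose the cells. Their levels are therefore partly set by that choice, and this count is no free measure. Vpreb2 stood at 926 CPM in the gate cells and 1256 CPM in the Dntt-positive cells. Blnk, the adaptor that relays the receptor's signal, stood at 361.5 and 600.5 CPM. None of the 22 measured B-lineage transcription factors differed by 2-fold either (median -0.28). Ebf1 stood at 2118 CPM against 2649, Pax5 at 306 against 345 and Lef1 at 195 against 322, and Lef1 was detected in 77.7% of these gate cells and 89.4% of the Dntt-positive cells. The interleukin-7 pathway gave 0 of 6. Il7r, the receptor chain, had 499 CPM against 648, and Socs2, a feedback inhibitor of cytokine signals, 539.7 against 526.3. These counts hold for cells chosen after the data had been seen. In all gate cells of this mouse, with none left out, 7 of 22 factors were at least 2-fold lower than in Dntt-positive cells (median -0.76). So were 9 of 15 genes of the receptor list (median -1.03).

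The genes that did differ included one of the recombinase. Rag1 had 112 CPM in the gate cells and 257 CPM in the Dntt-positive cells, -1.13 on the log2 scale, and was detected in 44.6% and 70.0% of cells. Rag2 had 50.9 and 78.1 CPM, less than 2-fold apart, and the other 3 measured genes of V(D)J recombination were also within 2-fold. Igf1, a growth factor gene, had 26.5 and 118 CPM and was detected in 18.9% and 44.5% of cells, and Arpp21, a gene of early lymphocytes, had 22.8 and 87.0 CPM. Rhoj, Dhrs3, Speer2, Pcp4 and Lyz2 were also lower by at least 2-fold, as was Dntt by the choice of the cells. So were Cd74 (7.95 against 127 CPM) and H2-Aa (3.18 against 56.7 CPM), class II presentation genes, although Cd74 was detected in 7.43% and 6.14% of cells, so its difference came from few cells.

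Of the genes of the cell cycle, 0 of 25 measured S phase genes and 0 of 32 genes of the G2 and M phases differed by 2-fold. Their median differences were 0.28 and 0.23, against 0.02 over all genes. Other lists had larger medians, again with 0 genes 2-fold apart: 0.39 over 18 genes of glycolysis and MYC targets and 0.50 over 6 granulocyte genes. Mki67 had 1040 CPM in the gate cells and 856 CPM in the Dntt-positive cells and was detected in 65.1% and 39.8% of cells. Top2a, the topoisomerase that untangles chromosomes before division, had 1380 and 1100 CPM.

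**Figure D4:**
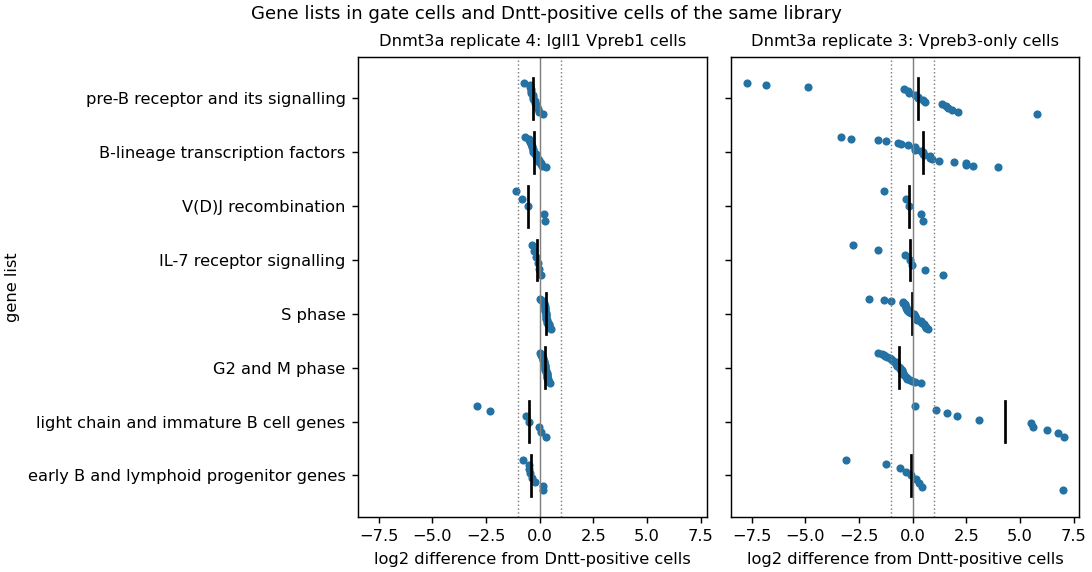
Log2 difference (CPM plus 10) of gate cells from Dntt-positive cells of the same mouse for each measured gene of 8 lists, after leaving out cells high in granulocyte, erythroid or plasma cell genes; points are genes, black ticks list medians, dotted lines a 2-fold difference. Left, Dnmt3a replicate 4 cells with Igll1 and Vpreb1, where nearly every point lies within 2-fold; right, Vpreb3-only cells of Dnmt3a replicate 3, where Igkc (3517 CPM against 22.5 CPM) is among the points of the light chain list. A gene is shown if it reached 50 CPM on at least one side. Igll1, Vpreb1, Vpreb3 and Cd79a, used by the gate, are among the points of the first list.

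The share of cells without a Dntt UMI varied with depth. Among the Dnmt3a replicate 4 cells that met the rest of the gate, had Igll1 and Vpreb1 and were low in granulocyte genes, 26 of 93 (27.96%) with 1000 to 2500 UMIs had no Dntt UMI. The share was 4.34% (40 of 921) at 2500 to 5000 UMIs, 9.24% (34 of 368) at 5000 to 10000 and 12.9% (56 of 435) at 10000 to 20000. In cells of 20000 UMIs or more it was 11.8% (25 of 212). The median Dntt-positive cell of this library held 5 Dntt UMIs. So the share was highest in the shallowest cells, lowest at 2500 to 5000 UMIs and higher again above 10000. In Dnmt3a replicate 3, with far fewer cells, it was 0 of 6 at 1000 to 2500 UMIs, 1 of 13, 1 of 27 and 1 of 21 in the next bins, and 2 of 13 at 20000 or more. Whether these cells lacked the transcript or it was not captured cannot be told apart.

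The cycling comparison moved with depth in the same cells. A cell was counted as carrying cycling transcripts with at least 2 UMIs over the G2 and M phase list after its UMIs had been thinned to a fixed number. Thinned to 2000 UMIs, the shares without and with Dntt were 12 of 40 cells and 15.8% in cells of 2500 to 5000 UMIs and 58.8% and 31.4% at 5000 to 10000. They were 91.1% and 91.3% at 10000 to 20000, and 96.0% and 97.3% above. The intervals were apart at 5000 to 10000 UMIs and overlapped narrowly at 2500 to 5000. Above 10000 UMIs nearly all cells of both kinds passed, so the measure was near its ceiling and could not show a difference there.

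**Figure D5:**
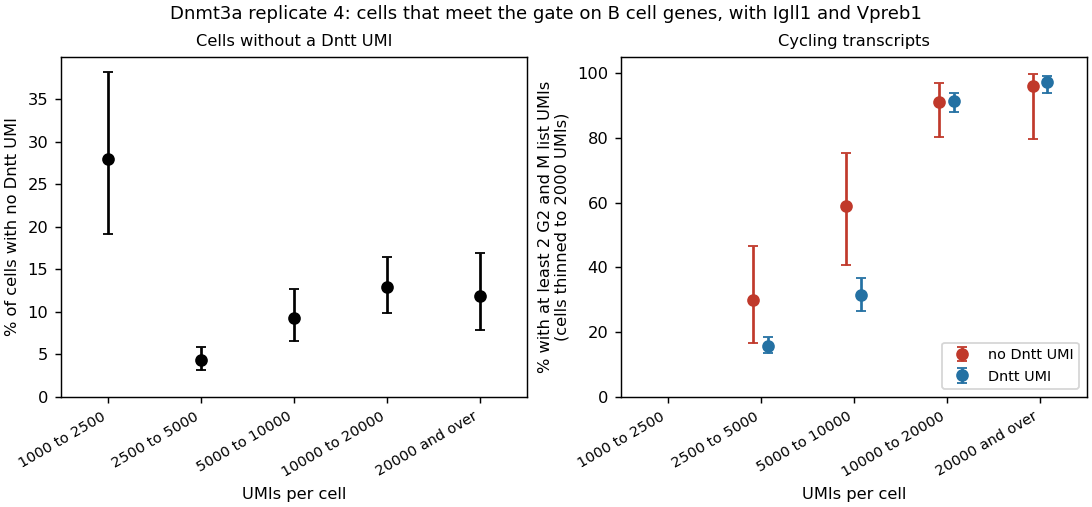
Dnmt3a replicate 4 cells with Igll1 and Vpreb1 that met the gate apart from Dntt, by UMIs per cell. Left, the percentage with no Dntt UMI, highest at 27.96% in the shallowest cells; right, the percentage with at least 2 G2 and M phase UMIs after thinning to 2000 UMIs, in cells without and with Dntt; points are shares and bars 95% exact binomial intervals for counting error only.

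Over all gate cells, the share with cycling transcripts after thinning to 5000 UMIs was 94.2% in Dnmt3a replicate 4 (161 of 171 cells, 98 shallower cells left out) and 94.7% in Dnmt3a replicate 3 (18 of 19). Kept cells that were neither gate cells, Dntt-positive nor mature B had 84.4% and 95.2% in those mice at that depth, and Dntt-positive cells 81.2% and 98.4%. In Dnmt3a replicate 3 the measure was near its ceiling. In Dnmt3a replicate 4 the gate cells' 95% exact interval was 89.5% to 97.2%. It lay above those of the other kept cells (83.0% to 85.7%) and the Dntt-positive cells (78.6% to 83.6%). The share rose with depth even after thinning to 2000 UMIs, so these gaps were not read further. At 2000 UMIs, which keeps more cells, the share of gate cells was 69.7% of 231 and 66.7% of 36 in those mice. It was 22.2% in Tnfr1KO-labelled replicate 2 (6 of 27 cells). Without thinning the 3 values were 83.6%, 58.5% and 24.2%. In Dnmt3a replicate 4 the 95% exact interval of the gate cells, 63.3% to 75.6%, overlapped that of the other kept cells (65.3%, 63.6% to 66.9%) and lay above its Dntt-positive cells at 43.8%. Those 2 kinds differed in depth, with medians of 9570 UMIs in the gate cells and 5018 UMIs in the Dntt-positive cells. The share rose with depth even after thinning, as given above, so this gap is not on an equal footing. In Dnmt3a replicate 3 the gate cells' interval, 49.0% to 81.4%, held the 79.5% of the other kept cells and overlapped that of the Dntt-positive cells (83.1%, 72.9% to 90.7%). In Tnfr1KO-labelled replicate 2 the gate cells (8.62% to 42.3%) lay below both, at 67.8% and 12 of 15 cells (51.9% to 95.7%). Of the Vpreb3-only cells, 61.9% of 21 carried them in Dnmt3a replicate 3 (95% exact interval 38.4% to 81.9%) and 64.7% of 17 in Dnmt3a replicate 4 (38.3% to 85.8%). The values were 2 of 21 (1.17% to 30.4%) in Tnfr1KO-labelled replicate 2 and 2 of 12 (2.09% to 48.4%) in replicate 3. All these intervals count cells within 1 mouse each, so they do not measure a difference between genotype labels. Free RNA of dividing cells can add to these counts, and its part was not tested.

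The Vpreb3-only cells of Dnmt3a replicate 3 were also described against the Dntt-positive cells of their mouse. With the same cells left out, 37 of them stood beside 74 Dntt-positive cells. Of 3710 genes, 337 were at least 2-fold higher (9.08%) and 236 at least 2-fold lower (6.36%), with a median of 0.03 over all. The median depth was 2062 UMIs in all Vpreb3-only cells of this mouse and 9497 UMIs in its Dntt-positive cells, so a lower share of cells with a UMI is read beside the CPM. With so few cells, many single genes rest on a handful of UMIs. A gene can then pass 50 CPM and 2-fold through counting error, or only through the side where it is high. These counts are therefore no support for a wide difference and cannot be set beside those of Dnmt3a replicate 4.

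Of 21 light chain and immature B cell genes, 11 stayed under 50 CPM on both sides and 9 were at least 2-fold higher in the gate cells. Most of the 9 reached 50 CPM only in the gate cells, so they were counted because they were high there, and their count is no support; Cd72 (367 CPM against 78.8) and H2-Ab1 (184 against 82.2) reached it on both sides. Igkc had 3517 CPM against 22.5 CPM and was detected in 86.5% and 10.8% of cells. The lambda constant genes Iglc1, Iglc2 and Iglc3, which share much of their sequence and are uncertain one by one, were also among the 9; Iglc2 had 837 CPM against 1.13. Cd74 had 609 CPM against 3.38. Outside that list, Ly6d had 2004 CPM against 5.63 and was detected in 86.5% and 4.05% of cells.

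Receptor genes split in these cells. Of the 18 genes of the pre-B receptor list 17 reached 50 CPM on at least one side, and, with the same limit on what the counts show, 6 were at least 2-fold higher (Fcrla, Blk, Ighm, Syk, Lyn and Cd79b) and 3 lower (Vpreb1 and Igll1, absent by the way these cells were chosen, and Vpreb2). Ighm, the mu heavy chain, had 2930 CPM against 802, and Fcrla, an Fc receptor-like protein of B cells, 661 against 2.25. Vpreb2, not used by the gate but a near copy of Vpreb1, had 0 CPM against 284. Of 26 transcription factors, 23 of which reached 50 CPM on either side, 6 were higher and 4 lower, again with that limit. Those higher were Ikzf3, Klf2, Irf4, Spib, Bach2 and Ikzf1; Irf4, which is known to favour light chain rearrangement, had 162 CPM against 20.3, and Klf2, a factor of resting lymphocytes, 683 against 87.8. Those lower were Lef1, Erg, Runx1 and Id3. Lef1 had 29.4 CPM against 385, and Erg, a factor of early progenitors, 7.34 against 118. Ebf1 (2871 against 2199) and Pax5 (169 against 158) were within 2-fold.

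Genes of signalling and division were mixed. Il7r had 455 CPM against 166, 1.41 on the log2 scale, while Socs2 had 14.7 against 157. Of the 30 measured G2 and M phase genes, 0 were higher and 6 lower by 2-fold (Ccnb1, Cenpa, Ube2c, Ckap2l, Aurka and Tpx2), with a median of -0.61. Of the 28 measured S phase genes, 0 were higher and 2 lower (Hells and Tyms), with a median of -0.0084. Mki67 had 587 CPM against 809, within 2-fold, and was detected in 29.7% and 74.3% of cells. Rag1 had 80.8 CPM against 59.7 and Rag2 14.7 against 52.9. Kit, by which the cells were sorted, had 22.0 CPM against 66.4.

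The Vpreb3-only cells of the Tnfr1KO-labelled mice are given with no cells left out, so cells high in plasma cell genes remain among them. Igkc was detected in 8 of the 8 cells of replicate 1, 88.5% of the 26 cells of replicate 2 and 94.1% of the 17 cells of replicate 3, and Ly6d in 87.5%, 96.2% and 94.1%. Lef1 was detected in 1 cell of each. Cd74 was detected in 57.7% of the cells of replicate 2 and 58.8% of those of replicate 3. In replicate 2 Mki67 had 0 of the 94891 UMIs of the 26 cells, which allows a level of up to 31.6 CPM (3 counts of the total, counting error only), while it was detected in 3 of 8 cells of replicate 1 and 23.5% of the cells of replicate 3. Replicate 2 also held 287 of the 566 mature B cells of all libraries (Cd79a, Ms4a1 and Ighd each with a UMI). Ighd, the delta heavy chain of mature B cells, was detected in 13 of its 26 Vpreb3-only cells.

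Expression within gate cells could be compared between groups only for the Tnfr1KO-labelled and Dnmt3a mice, with 3 libraries each that held at least 10 gate cells. Of 3404 genes, edgeR's quasi-likelihood test called 3 higher in the Tnfr1KO-labelled mice (0.0881%) and 0 lower at a Benjamini-Hochberg adjusted p of 0.05, beside 539 genes at an unadjusted p under 0.05. DESeq2 called 77. Without Dnmt3a replicate 1, 0 genes were called by edgeR, without Dnmt3a replicate 3 it called 10, and without Tnfr1KO-labelled replicate 1 it called 26, so the count rests on single libraries. With the cells marked as doublets left out, 1 was called: Hist1h2ap (edgeR adjusted p 0.0167), while Gm10076 and H2-Eb1 both had an edgeR adjusted p of 0.0966. H2-Eb1 also missed 0.05 without Dnmt3a replicate 4, Tnfr1KO-labelled replicate 2 or Tnfr1KO-labelled replicate 3 (edgeR adjusted p 0.340, 0.0723 and 0.0591). The log2 fold changes of the 3 genes kept their sign in every one of these settings.

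The histone gene Hist1h2ap had 47.2, 73.2 and 131 CPM in Dnmt3a replicates 1, 3 and 4 and 2345, 1514 and 424 CPM in the Tnfr1KO-labelled replicates 1 to 3. Its log2 fold change was 4.39 with an edgeR adjusted p of 0.00866. The unnamed gene Gm10076 had 88.0, 133 and 184 CPM against 1412, 1099 and 370 CPM (3.19, edgeR adjusted p 0.00866). Both were also far apart in the kept cells of the same libraries outside the gate and not Dntt-positive: Hist1h2ap had 82.7, 55.2 and 90.3 CPM there against 1273, 1286 and 506 CPM, and Gm10076 109, 178 and 183 against 1808, 1327 and 768. The difference was therefore not limited to gate cells.

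H2-Eb1, a chain of the class II presentation complex, was the third. It had 0, 21.7 and 8.15 CPM in Dnmt3a replicates 1, 3 and 4 and 133, 945 and 131 CPM in the Tnfr1KO-labelled replicates, with a log2 fold change of 5.86 (edgeR adjusted p 0.0494). It passed the expression filter of that test only through the Tnfr1KO-labelled libraries, where it was high, so its call is no support. It was detected in 0 of 14, 6 of 53 and 10 of 269 gate cells and in 3 of 11, 12 of 33 and 4 of 18. Single cells carried most of it in the Tnfr1KO-labelled replicates 1 and 3, with 9 of 12 UMIs (75%) and 14 of 17 UMIs (82.4%) in 1 cell each, while in replicate 2 the top cell held 18 of 148. In those other cells it had 10.4, 23.8 and 100.3 CPM against 20.3, 57.0 and 27.3 CPM, where the groups overlapped. The class II presentation genes Cd74 (4.08, edgeR adjusted p 0.161) and H2-Aa (4.60, edgeR adjusted p 0.0905) did not pass.

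Among the markers of large pre-B cells, none passed in that comparison. Mki67 had 846, 567 and 666 CPM in the Dnmt3a mice and 256, 185 and 131 CPM in the Tnfr1KO-labelled mice, a fitted difference of -1.38 (edgeR adjusted p 0.0905). Lef1 had 69.2, 62.4 and 88.1 CPM against 55.6, 76.6 and 7.71 (edgeR adjusted p 0.873). Pax5 had 145, 146 and 143 CPM against 88.9, 128 and 84.8. The fitted difference of Pax5 was 0.01 (edgeR adjusted p 0.996). Fitted differences are on libraries that edgeR had rescaled for composition by its TMM factors. The CPM given are not rescaled, so the 2 scales differ for these genes, Pax5 among them. The mix of the 3 kinds of gate cells differed between these libraries, as given above, and its part in the differences was not tested.

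The positions of the gate's genes in GRCm38.p6 are those of RefSeq. Vpreb1 (chromosome 16, 16868401 to 16869255) and Igll1 (chromosome 16, 16860671 to 16863985) are neighbours, Vpreb2 lies on the same chromosome (17979445 to 17981274) and Vpreb3 on chromosome 10 (75943024 to 75949657). Dntt is on chromosome 19 (41029275 to 41059525), Cd79a on chromosome 7 (24897497 to 24901858) and Ms4a1 on chromosome 19 (11249679 to 11266149). All are protein-coding genes. Vpreb1 and Vpreb2 are near copies, so reads may be divided between them.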

How the data were processed

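UMIs were measured in 14 libraries of 1 mouse each, prepared with 10x version 3.1 chemistry. The deposited matrices hold whole-number counts per gene and barcode for 32285 genes, made by the authors with bcl2fastq 2.20.0.422 and Cell Ranger 6.0.0 on mm10/GRCm38, per the submitters' processing notes.

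Cells were filtered and gated as the report states. No doublets were removed in the gate; doublets were called by simulation at 0.8% per 1000 cells as an alternative. The members and gene lists were chosen with earlier results of these data known. Named genes were all members of the lists, plus the genes ranked highest and lowest by log2 of CPM plus 10 between gate cells and other cells, and called genes. Genes named only for the comparisons without granulocyte, erythroid or plasma cell gene-high cells (Myl4, Hmgn1, Fabp5 and Pcp4) were chosen after their values were seen.

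Shares were tested by exact two-sided permutation of log2 of the count plus 0.5 over kept cells plus 1. Summed counts were tested with edgeR 4.0.16 (TMM, R 4.3.3), which was first tested on simulated counts, with DESeq2 1.42.0 as an alternative. In the simulation no single cell set a sum, as some did in these data, so it does not vouch for the calls. The planned minimum of 20 gate cells per library left Dnmt3a with 2 libraries and the Tnfr1KO-labelled group with 1, so that test could not be run and the result with at least 10 cells is given. Gate cells against other cells got no test. Intervals are exact (Clopper-Pearson, 95%) and cover counting error only.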

Additional observations from a re-analysis of the deposited data

Results flagged for a closer look

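A gap from the other mice of a group larger than Dixon's 95% limit was found 5 times. Several related measures were checked in the groups of 4 mice, Dnmt3a and Tnfr2KO, and groups of 3 were not checked. Chance gives such a gap in about 1 in 20 groups for each measure. That Dnmt3a replicate 4 held most gate cells was known beforehand, and its flags are not independent. The number of flags is therefore not a test. Dnmt3a replicate 4 had 4.74% of its kept cells in the gate, against 0.923% in the next Dnmt3a mouse. Its gate cells with both Igll1 and Vpreb1 were 3.68% of kept cells, against 0.256% in the next, and its Dntt-positive cells 33.8%, against 3.02%. In Tnfr2KO, replicate 4 had 0.0147% of kept cells with both genes, from 1 cell, while the other 3 mice had 0, where any cell at all gives a flag. The 2 gate cells of Tnfr2KO replicate 3 had a median of 16614 UMIs, against 3403 in the next mouse of that group.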

How the results depend on the processing

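Of 85 alternatives for the 4 comparisons of shares, 83 kept the direction; none could have reached an adjusted p of 0.05, given the smallest p the design allows. The exceptions were both in the Tnfr1KO-labelled mice against Dnmt3a, where the log2 difference was 0.14 without the Ms4a1 rule and 0.37 with Vpreb3-only cells, the latter chosen after the data had been seen; the cause was not tested. Over all alternatives the differences ran from 2.77 to 4.85 (Dnmt3a against MxCre), from -3.09 to 0.37 (Tnfr1KO-labelled against Dnmt3a), from -6.36 to -2.71 (Tnfr2KO against Dnmt3a) and from -4.13 to -1.85 (Tnfr2KO against Tnfr1KO-labelled). Replicate numbers were shared between groups, but they were not taken to pair the mice: correlations of same-numbered mice's deviations over 7498 genes ran from -0.417 to 0.451, and each comparison had a pair at 0.0294 or below. The Tnfr2KO and Tnfr1KO-labelled mice came nearest, with 0.248, 0.451 and 0.0294. With the replicate number as a block the differences were 2.91, -0.09, -3.90 and -3.05, with exact p of 0.25, 1.0, 0.125 and 0.25.

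The count of genes called between Tnfr1KO-labelled and Dnmt3a gate cells was 77 by DESeq2, 348 without a filter beyond 1 UMI, 1 without doublets, 27 with the replicate block and 0 to 26 when 1 library was left out; the cause was not tested. The cycling share of Dnmt3a replicate 3 was 100% with 1 UMI over the list, 66.7% thinned to 2000 UMIs and 58.5% without thinning; that of Dnmt3a replicate 4 was 88.3% with 3 UMIs, 69.7% thinned to 2000 and 83.6% without thinning. With 50 CPM added, 35 genes were higher and 27 lower by 2-fold in the gate cells of Dnmt3a replicate 4 against its Dntt-positive cells, and 40 and 22 in Dnmt3a replicate 3. Without cells high in granulocyte, erythroid or plasma cell genes these counts were 15 and 13, and 155 and 134.

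The expression test in the other 3 comparisons was not run, because MxCre and Tnfr2KO have 0 libraries with 10 gate cells; with a minimum of 20 or 50 cells it was not run because the Tnfr1KO-labelled group kept 1 or 0 libraries. The 2-group fit is the one given. Groups of 2 to 5 gate cells per mouse limit what a share can show.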
